A study of Mus musculus with 18 samples.

Results

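The RNA on heavy polysomes was compared between mouse 4T1 cells with a hairpin against Dap5 (shDap5) and cells with a non-silencing hairpin (NSi). These libraries were chosen by title alone: 3 shDap5 and 3 NSi libraries of the heavy fraction, 6 of the 18 libraries in the series. The other 12 came from whole lysate (input) and from light polysomes of the same arms, again with 3 libraries per group. 4T1 is a mammary carcinoma line from the BALB/c mouse strain and is labelled as triple-negative. Every group, the NSi controls included, was induced with doxycycline at 2 µg/ml for 6 days. Lysates were separated on sucrose gradients, heavy fractions were pooled, and polyadenylated RNA was made into stranded libraries. Only 1 hairpin line stands for each arm and no uninduced cells were sampled, so the effect of the hairpin and a difference the lines had before induction cannot be told apart. No label names separate cultures within a group, so the p-values rest on a spread between libraries that may be technical.

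DAP5 is the protein product of Eif4g2. It resembles the scaffold protein eIF4G but lacks the region that binds the cap-binding protein eIF4E, and it is known for recruiting ribosomes to selected mRNAs through other partners such as eIF3d. In a sucrose gradient mRNAs sediment further the more ribosomes they carry, so heavy polysomes hold mRNAs under active translation. The amount of an mRNA in that fraction depends both on how much of it the cell holds and on how many ribosomes it carries.

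The 6 heavy libraries held 30385863 to 71331978 counts each, over 17267 to 18909 genes with at least 1 count. Levels are given as CPM, counts scaled to each library's total and between libraries with edgeR's TMM method. Libraries with the same number deviated from their group means together, with correlations of 0.51, 0.758 and 0.826 across genes for numbers 1, 2 and 3. The library shDap5 2 stood apart in 13 genes (of those that averaged 20 CPM or more) whose level there was over 5-fold above that in every other heavy library. These 13 took 2.46% of its counts and 0.0346% to 0.141% of the counts of the other 5. Cdk8 stood at 101, 304 and 487 CPM in NSi and at 106, 8076 and 301 CPM in shDap5, and Lars2 at 38.3, 104 and 161 against 35.8, 3382 and 110 CPM. None of the 13 was called as changed, and leaving shDap5 2 out of the fit gave 551 called genes in place of 595. Mammary epithelial markers defined the cells in every library, with a summed level of 8249 to 11366 CPM over 11 markers in NSi and 11875 to 12087 CPM in shDap5, and 3 of the 11 rose. Endothelial markers summed to 20.7 to 28.1 CPM in NSi and 25.2 to 31.3 CPM in shDap5, with Cldn5 at 0 in all 6. Macrophage markers summed to 94.6 to 112 and 88.7 to 142 CPM, with C1qa and C1qb at 0 in all 6, and fibroblast markers to 16.8 to 24 and 14 to 24.9 CPM. Neutrophil markers summed to 4.50 to 22.5 and 6.39 to 9.34 CPM, adipocyte markers to 3.33 to 6.38 and 1.48 to 2.91 CPM, and lymphocyte and red cell markers to at most 0.228 and 0.0959 CPM.

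The comparison asked which mRNAs differed in abundance on heavy polysomes between the shDap5 and the NSi cells. The level of the DAP5 protein was not measured in these libraries. Of 15072 genes tested 595 (3.95%) were called at an edgeR adjusted p under 0.05, 306 higher (2.03%) and 289 lower (1.92%) in shDap5, a near-even split that leaned the other way under several alternatives, such as 243 higher and 299 lower with upper quartile scaling. At least 2-fold differences made up 390 of them (2.59% of the genes tested), 180 higher and 210 lower. The median size of a called log2 change, with its sign left aside, was 1.27. The median over all genes tested, 0.01, keeps the sign, so rises and falls cancel in it and it is not a typical size. In 582 of the 595 the shDap5 libraries did not overlap the NSi libraries, a pattern that 7.6% of all tested genes showed upwards and 8.11% downwards. With libraries of the same number treated as pairs, a fit of the heavy libraries alone called 2330 of 13248 genes (17.6%), 1096 higher (8.27%) and 1234 lower (9.31%), and of the 557 earlier calls it could test it kept 552. Without the pairing the heavy libraries alone gave 56 calls. The count also depended on single libraries, since it was 252 without NSi 2 and 313 without shDap5 3.

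**Figure D1:**
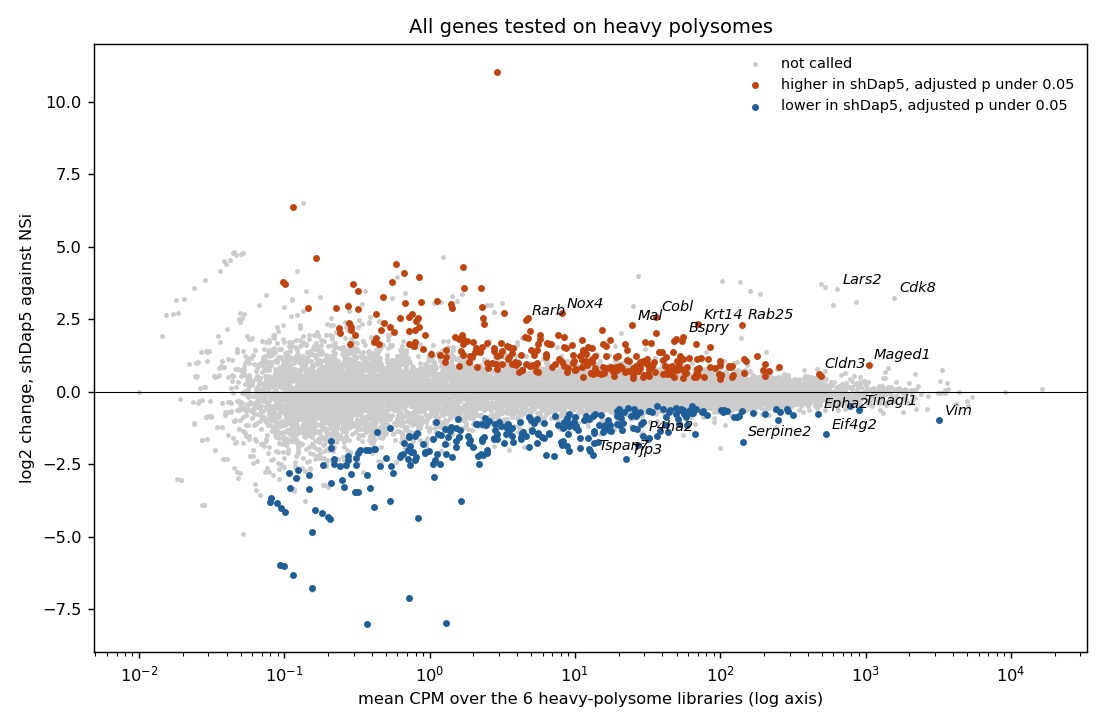
Each point is a gene, with its mean CPM over the 6 heavy-polysome libraries on a log axis and its edgeR log2 change (shDap5 against NSi) on the vertical axis; orange and blue points passed an adjusted p of 0.05. Most called genes lie below 100 CPM, Vim and Maged1 are the most abundant ones, and the uncalled points around Cdk8 and Lars2 owe their height to shDap5 2.

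Eif4g2, the target of the hairpin, fell on heavy polysomes. It stood at 864, 822 and 660 CPM in the NSi libraries and at 358, 277 and 222 CPM in the shDap5 libraries, and every shDap5 value lay below every NSi value. Its log2 change was -1.45 (SE 0.26, edgeR adjusted p = 0.00349), and the call held under every alternative, with adjusted p-values between 3.84e-06 and 0.0465. Its relatives Eif4g1 and Eif4g3, which encode the eIF4E-binding scaffolds, were at log2 changes of -0.29 and -0.15 and were not called. Eif4g2 was the only one of 18 tested eIF4F and DAP5 genes to be called, and the median of that list was 0.00. The paired fit also called Eif4a2, Paip2 and Mknk2 as higher and Mknk1 as lower. None of 14 eIF3 subunit genes was called (median -0.10), and in the paired fit Eif3b alone fell. Eif2s3x, an X-linked subunit gene of the factor that delivers initiator tRNA, was the only call among 25 other initiation factors. It rose from 19.3, 15.6 and 10.4 CPM to 33.6, 26.3 and 20.1 CPM (edgeR log2 0.82, SE 0.20, adjusted p = 0.0275). The highest NSi and the lowest shDap5 library lay side by side, and the call was lost without NSi 2, NSi 3 or shDap5 1 (adjusted p up to 0.117).

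Genes for the translation machinery itself did not pass the test on heavy polysomes. None of 82 cytosolic ribosomal protein genes was called (median log2 change 0.09), nor any of 22 elongation factors and other mRNAs with a terminal oligopyrimidine tract (median 0.06), a class translated under mTOR control. Pairing added rises of Rpl22l1, Rps26 and Rpl41 and a fall of Rpl28. The median of the ribosomal protein list was 0.36, -0.20 and 0.03 by library number, so its sign differed between pairs. None of 75 mitochondrial ribosomal protein genes was called (median 0.03). Nuclear-encoded respiratory chain genes had a median of 0.18, with 60 of 77 above 0 and none called. In the paired fit 10 of the 77 rose and 1 fell, where 8.27% of all genes rose and 9.31% fell. Of 14 mRNAs earlier reported to depend on DAP5, Eif4g2 itself was the only call, and the median was 0.00. Eif4g2 is the target of the hairpin, so its call says nothing about the other members, none of which was called. Over all genes 2.03% rose and 1.92% fell. Birc2, an inhibitor of apoptosis, rose and Tgfb1 fell in the paired fit.

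The largest rises above 5 CPM were in genes of epithelial trafficking and actin assembly, an NADPH oxidase, the keratin Krt14 and a bicarbonate transporter. Nox4, an NADPH oxidase that makes hydrogen peroxide, stood at 1.97, 2.01 and 2.43 CPM in NSi and at 12.3, 19.1 and 10.6 CPM in shDap5 (edgeR log2 2.71, SE 0.25, adjusted p = 1.38e-05). Cobl, an actin nucleator, stood at 9.47, 15 and 6.58 CPM in NSi and at 55, 89 and 42.8 CPM in shDap5 (edgeR log2 2.60, SE 0.29, adjusted p = 5.48e-05). In both genes shDap5 2 was the highest library and no shDap5 library came near an NSi one. Slc4a4, a sodium bicarbonate cotransporter, stood at 6.25, 6.22 and 4.57 CPM against 16.8, 39.7 and 18.2 CPM (edgeR log2 2.13, SE 0.32, adjusted p = 0.00113). Blnk, an adaptor protein best known from B cell receptor signalling, stood at 14, 14.3 and 13.9 CPM against 46, 73.7 and 53.8 CPM. Chn2, a Rac GTPase-activating protein, rose from 2.31, 2.31 and 2.41 CPM to 10.9, 9.88 and 6.83 CPM. Here the NSi libraries spread by far less than the shDap5 libraries. P3h4, a factor of collagen prolyl 3-hydroxylation and crosslinking, stood at 2.54, 2.49 and 5.66 CPM against 12.9, 12.9 and 14.3 CPM.

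Bspry gave the tightest of these rises. It stood at 21.2, 20.5 and 29.1 CPM in NSi and at 87.9, 86.1 and 87.8 CPM in shDap5 (edgeR log2 1.89, SE 0.15, adjusted p = 2.18e-06). Prom2, which encodes a cholesterol-binding protein of membrane protrusions, stood at 26.5, 14.7 and 24.7 CPM against 71, 91.3 and 71.3 CPM (edgeR log2 1.82, SE 0.21, adjusted p = 6.58e-05). Il17re, a chain of the receptor for interleukin-17C, stood at 5.08, 3.81 and 5.93 CPM against 14.9, 19.7 and 17.2 CPM, with no overlap. Lce1g, a gene of the cornified envelope of skin, rose by 1.84 (SE 0.40, edgeR adjusted p = 0.0135), a call lost without NSi 2 or shDap5 1 (adjusted p up to 0.0729). Serpina3h rose by 1.77 (SE 0.30, edgeR adjusted p = 0.00251), but it lies in a cluster of near-identical genes among which reads may have been split. Rarb, a retinoic acid receptor that is itself switched on by retinoic acid, rose from 0.941, 1.57 and 1.69 CPM to 6.19, 9.67 and 7.56 CPM (edgeR log2 2.48, SE 0.31, adjusted p = 0.000181). It was the only call among 19 tested genes of the retinoic acid pathway, whose median was 0.11. In the paired fit 6 of them rose and 4 fell, where 8.27% of all genes rose and 9.31% fell.

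**Figure D2:**
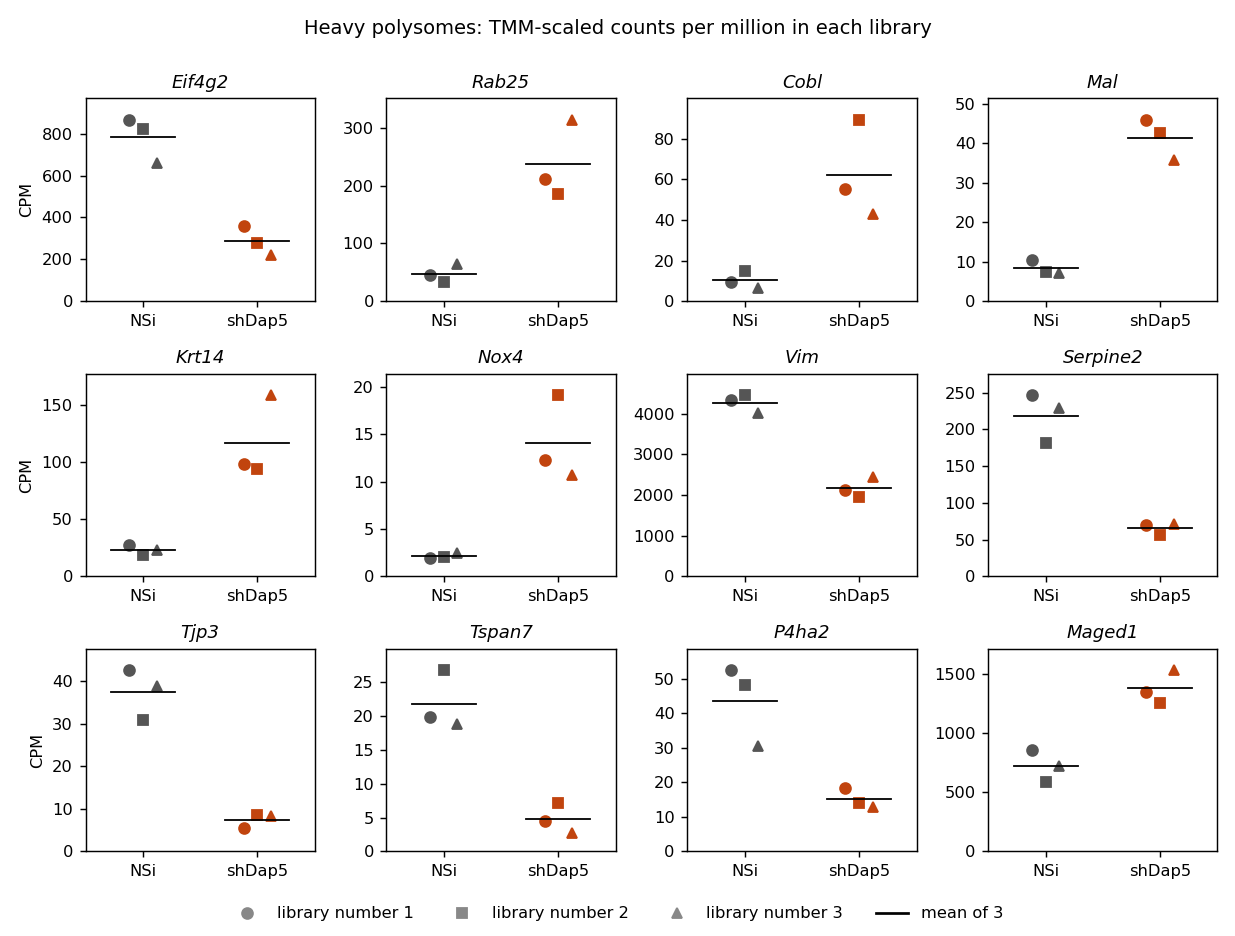
Each panel gives 1 gene, with CPM on a vertical axis that starts at 0, the arm on the horizontal axis, a symbol for each library number and a line at the mean of 3. In all 12 genes the 3 shDap5 libraries lie to one side of the 3 NSi libraries, and P4ha2 shows the widest spread within NSi relative to its mean among the genes that fell.

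Several epithelial lists held rises and hardly a fall. Of 25 tested genes of apical trafficking and polarity 6 rose and none fell (median log2 change 0.22), and of 19 epithelial transcription and splicing regulators 6 rose and none fell (median 0.38). Over all genes tested 2.03% rose and 1.92% fell, with a median of 0.01. The lists were drawn up with earlier results of these data known, so rises within them are a description and not a test. Mal and Mal2 encode membrane proteins of apical transport. Mal rose from 10.4, 7.46 and 7.27 CPM to 45.9, 42.6 and 35.7 CPM (edgeR log2 2.31, SE 0.22, adjusted p = 1.69e-05), and Mal2 from 23.8, 18.1 and 23.4 CPM to 84.7, 78.1 and 57.9 CPM (log2 1.76, SE 0.20, adjusted p = 7.75e-05). Rab25, a GTPase of recycling endosomes, rose from 44.6, 32.9 and 64.5 CPM to 212, 185 and 313 CPM (edgeR log2 2.32, SE 0.24, adjusted p = 2.59e-05). In Rab25 the library with number 3 was the highest in both arms. The other trafficking calls were Cobl, Ap1m2, the mu subunit of the epithelial clathrin adaptor AP-1B, and Prss8, a membrane serine protease. Ap1m2 stood at 35.8, 14.7 and 24.4 CPM in NSi and at 87.6, 69.6 and 92.8 CPM in shDap5.

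The promoters of 3 of these trafficking genes are shown because their mRNAs rose together and each holds CAGGTG, the E-box form that epithelial repressors such as the ZEB and SNAI proteins are known to bind. Sequences are the 250 bases before the RefSeq start in GRCm38.p6, 5′ to 3′ on the gene's strand, with each match in capitals. Both strands were searched, so a match on the other strand reads CACCTG. Rab25 lies at chr3:88548280-88548529 on the minus strand, Cobl at chr11:12464961-12465210 on the minus strand and Ap1m2 at chr9:21312334-21312583 on the minus strand.
Rab25: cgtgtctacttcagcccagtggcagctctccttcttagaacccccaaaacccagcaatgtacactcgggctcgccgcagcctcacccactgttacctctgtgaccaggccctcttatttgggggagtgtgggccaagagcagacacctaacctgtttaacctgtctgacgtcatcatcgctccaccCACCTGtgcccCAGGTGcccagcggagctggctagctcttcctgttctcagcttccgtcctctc
Cobl: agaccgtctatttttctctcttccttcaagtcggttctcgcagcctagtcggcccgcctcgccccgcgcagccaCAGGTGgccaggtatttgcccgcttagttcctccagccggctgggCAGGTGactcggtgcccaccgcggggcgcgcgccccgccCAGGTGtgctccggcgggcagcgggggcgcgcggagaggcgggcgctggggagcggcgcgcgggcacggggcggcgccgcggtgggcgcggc
Ap1m2: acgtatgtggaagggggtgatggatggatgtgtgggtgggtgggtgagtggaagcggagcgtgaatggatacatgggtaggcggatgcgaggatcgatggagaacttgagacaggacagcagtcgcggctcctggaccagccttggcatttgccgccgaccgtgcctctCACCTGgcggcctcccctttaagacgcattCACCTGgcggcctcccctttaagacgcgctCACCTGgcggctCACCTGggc
Rab25 held 2 matches, Cobl 3 and Ap1m2 4, the nearest of them beginning 9 bases before the start of Ap1m2. The motif was found in 4 of the 16 trafficking promoters in the table (25%) and in 17.1% of all 27025 promoters. Mal, Mal2 and Prss8, which rose too, were not among those 4, and not every list member had a promoter in the table. The 3 promoters were chosen after their values were seen, and a match is a description of these letters, not a binding site.

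The regulators that rose were Esrp2, Tfap2c, Elf3, Cebpa, Ovol2 and Esrp1. Esrp2 and Esrp1 encode splicing factors of epithelial isoforms. Esrp2 rose from 46.8, 40.6 and 37.5 CPM to 70, 85.6 and 71.2 CPM (edgeR log2 0.86, SE 0.14, adjusted p = 0.00196), with no overlap. Tfap2c, an AP-2 transcription factor, rose from 0.856, 2.01 and 1.66 CPM to 3.92, 3.72 and 4.27 CPM (edgeR log2 1.40, SE 0.26, adjusted p = 0.00561). Elf3, an ETS factor of epithelia, rose from 85.6, 50.9 and 70.5 CPM to 104, 152 and 133 CPM (edgeR log2 0.91, adjusted p = 0.0275), a call lost without NSi 2, shDap5 2 or shDap5 3 (adjusted p up to 0.138). Cebpa, a C/EBP transcription factor, stood at 0.0571, 0.146 and 0.521 CPM in NSi and at 0.981, 0.832 and 2.22 CPM in shDap5, and its call was lost without NSi 1, NSi 2 or shDap5 3 (adjusted p up to 0.15). Ovol2 and Esrp1 rose by 1.25 and 0.66 (edgeR adjusted p = 0.0371 and 0.0377), and each was lost with 1 library left out (adjusted p up to 0.14 for both). In the paired fit 8 of the 19 rose, Grhl2 among them, and none fell, where 8.27% of all genes rose and 9.31% fell.

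A minority of junction genes was called. Among 22 tight junction genes 3 rose and 1 fell (median 0.23; -0.02, 0.47 and 0.25 by library number), where over all genes 2.03% rose and 1.92% fell. Cldn7 rose from 111, 72.8 and 108 CPM to 216, 200 and 197 CPM (edgeR log2 1.07, SE 0.21, adjusted p = 0.00775) and Cldn3 from 356, 328 and 446 CPM to 571, 554 and 612 CPM (log2 0.62, SE 0.15, adjusted p = 0.0221). Both encode claudins, the strand-forming proteins of the tight junction. Marveld3 rose by 0.77 (edgeR adjusted p = 0.0342). Tjp3, which encodes the scaffold ZO-3, went down from 42.6, 31 and 39 CPM to 5.58, 8.5 and 8.32 CPM (edgeR log2 -2.33, SE 0.30, adjusted p = 0.000249), the largest fall above 5 CPM. Of 21 adherens junction and desmosome genes 3 rose and none fell (median 0.36; -0.01, 0.59 and 0.44 by library number). In neither junction list did the number 1 libraries show a raised median. Pkp1 and Pkp3, plakophilins of desmosomes, rose by a log2 change of 1 and 0.86 (edgeR adjusted p = 0.00992 and 0.00995), and Jup, plakoglobin, by 0.56 (adjusted p = 0.0464). Cdh1, E-cadherin, was at 776, 710 and 381 CPM in NSi and 565, 1066 and 469 CPM in shDap5, with overlapping arms and no call (edgeR log2 0.17, adjusted p = 0.81). Without NSi 2 the calls of Cldn7, Cldn3, Marveld3, Pkp1, Pkp3 and Jup were lost (adjusted p = 0.053, 0.122, 0.163, 0.0676, 0.0547 and 0.226), and those of Cldn3, Marveld3 and Jup were lost without at least 3 other libraries too. Krt14, a keratin of basal epithelium, was the only call among 13 keratins (median 0.36) and rose from 27.7, 18.9 and 23.2 CPM to 98.4, 94.2 and 158 CPM (edgeR log2 2.33, SE 0.26, adjusted p = 4.44e-05). Krt13, Krt16 and Krt19 rose as well once libraries were paired.

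The largest falls were spread over an ion channel, membrane scaffolds and metabolic enzymes. Otop1, a proton channel, stood at 7.50, 12.8 and 15.2 CPM in NSi and at 2.18, 2.34 and 3.09 CPM in shDap5 (edgeR log2 -2.22, SE 0.34, adjusted p = 0.0012). NSi 1 was the lowest NSi library, and it still lay above all shDap5 libraries. Tspan7, a tetraspanin, stood at 19.7, 26.7 and 18.8 CPM against 4.54, 7.07 and 2.75 CPM. Ank2, ankyrin-B, stood at 29.9, 23.3 and 8.11 CPM against 6.47, 6.32 and 2.38 CPM (edgeR log2 -2.03, SE 0.43, adjusted p = 0.0117), and the call was lost without NSi 1 or shDap5 3 (adjusted p up to 0.0581). NSi 3 was the lowest of the NSi libraries and came close to the upper shDap5 ones. Cpq, a secreted carboxypeptidase, stood at 16.3, 15.2 and 12.7 CPM against 2.88, 3.95 and 3.84 CPM (edgeR log2 -2.05, SE 0.18, adjusted p = 8.29e-06). Hsd17b11, a dehydrogenase of lipid droplets, stood at 19.9, 18 and 13.9 CPM against 4.26, 4.65 and 4.48 CPM (edgeR log2 -1.95, SE 0.20, adjusted p = 1.98e-05).

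Further falls were found in signalling and secreted proteins. Gnao1, a G protein alpha subunit, fell by 1.84 (SE 0.40, edgeR adjusted p = 0.0144) and its call was lost without NSi 2 or shDap5 1 (adjusted p up to 0.0551). Hhip, an antagonist of hedgehog ligands, stood at 41.3, 42.7 and 43.4 CPM in NSi and at 9.35, 13.4 and 12.8 CPM in shDap5 (edgeR log2 -1.84, SE 0.23, adjusted p = 0.000169). The NSi libraries of Hhip lay close together and far from the shDap5 ones. Stc1, the secreted glycoprotein stanniocalcin, stood at 7.16, 12.8 and 16.9 CPM against 4.11, 3.14 and 3.90 CPM (edgeR log2 -1.73, SE 0.35, adjusted p = 0.00939). Tmem98 fell from 7.50, 7.24 and 10.6 CPM to 2.67, 1.85 and 2.86 CPM, Podnl1, a small leucine-rich proteoglycan, from 16.5, 18.5 and 27.2 CPM to 5.58, 4.47 and 8.25 CPM, and Ston2, an endocytic adaptor, from 17.9, 31.9 and 17 CPM to 5.86, 8.84 and 5.47 CPM. None of the 3 overlapped between arms.

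Mesenchymal and matrix lists held more falls than rises. Of 17 mesenchymal markers 3 fell and 1 rose (median log2 change -0.32), beside 1.92% lower and 2.03% higher over all genes. Vim, the intermediate filament vimentin, was the most abundant called gene and fell from 4348, 4453 and 4021 CPM to 2134, 1962 and 2447 CPM (edgeR log2 -0.97, SE 0.20, adjusted p = 0.0111). Sparc, a collagen-binding glycoprotein, fell from 291, 371 and 331 CPM to 136, 192 and 177 CPM (edgeR log2 -0.98, SE 0.18, adjusted p = 0.00563). Fstl1, a follistatin-like secreted protein, stood at 2.65, 4.24 and 3.62 CPM against 1.07, 0.728 and 0.528 CPM and fell by 2.20 (SE 0.34, edgeR adjusted p = 0.00132). Postn, periostin, went the other way, from 24.2, 12.4 and 6.28 CPM to 40.3, 59.3 and 41 CPM (edgeR log2 1.71, SE 0.41, adjusted p = 0.0236). Its call was lost without NSi 2, NSi 3 or shDap5 2 (adjusted p up to 0.102) and in the paired fit (adjusted p = 0.122). None of 15 transcription factors of epithelial-mesenchymal transition was called (median -0.02), with Twist1 at -0.59 (edgeR adjusted p = 0.114) and Zeb2 at -0.65 (adjusted p = 0.28). Both fell in the paired fit (adjusted p = 0.00796 and 0.00738).

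The enzymes that modify collagen held more falls than rises. Among 24 genes of collagen hydroxylation and crosslinking 4 fell and 1 rose (median -0.44), against 1.92% and 2.03% of all genes. The paired fit had 13 falls and 1 rise in the list, against 9.31% and 8.27% of all genes. P4ha2, a subunit of prolyl 4-hydroxylase, fell from 52.4, 48.1 and 30.4 CPM to 18.4, 14.1 and 13 CPM (edgeR log2 -1.53, SE 0.23, adjusted p = 0.00102). Fkbp14, a prolyl isomerase of the endoplasmic reticulum, Adamts14, a procollagen N-proteinase, and Plod1, a lysyl hydroxylase, fell by 0.88, 0.71 and 0.78 (edgeR adjusted p = 0.023, 0.0259 and 0.0397). With 1 library left out these 3 calls were lost (adjusted p up to 0.0953 without shDap5 1, 0.102 without shDap5 1 and 0.193 without NSi 2). Plod2, another lysyl hydroxylase, was at -0.85 and Pcolce, an enhancer of procollagen processing, at -0.88, and both passed in the paired fit only (edgeR adjusted p = 0.0022 and 0.000314). P3h4 was the member that rose.

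Of 23 collagen chains 3 fell and none rose (median -0.14), where 1.92% of all genes fell. The list's median was -0.46, 0.03 and 0.09 by library number, so its sign differed between pairs. Col5a1 stood at 72.4, 98.7 and 72.5 CPM in NSi and at 24.1, 51.3 and 35 CPM in shDap5 (edgeR log2 -1.14, SE 0.29, adjusted p = 0.0319), and Col6a1 at 19.4, 21.2 and 26 against 7.48, 10.6 and 12.4 CPM (log2 -1.13, SE 0.28, adjusted p = 0.0316). Each of these calls was lost when any of 4 libraries was left out (adjusted p up to 0.138 and 0.117). Col11a1 rested on few reads, with 111, 10 and 28 counts in NSi and 1, 0 and 0 in shDap5. Of 20 matricellular genes 4 fell (Sparc, Ecm1, Nov and Tnxb) and Postn rose (median -0.27). Itgb7 was the only call among 20 integrins and fell (edgeR log2 -1.56, adjusted p = 0.0377), while 14 of the 20 had a negative log2 change (median -0.35). It was lost without NSi 1, NSi 2, shDap5 1 or shDap5 3 (adjusted p up to 0.187), and in the paired fit Itga1, Itga5, Itga7 and Itgb3 fell too and Itgb6 rose.

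Proteases and their inhibitors were mixed, with 4 falls and 2 rises among 41 genes (median -0.22) beside 1.92% and 2.03% over all genes. Serpine2, an inhibitor of thrombin and plasminogen activators, fell from 246, 181 and 229 CPM to 70.6, 56.6 and 71.1 CPM (edgeR log2 -1.73, SE 0.20, adjusted p = 6.58e-05). Adam19, a membrane metalloprotease, fell from 25.6, 34.2 and 31.1 CPM to 14.5, 11.5 and 10.4 CPM (edgeR log2 -1.32, SE 0.20, adjusted p = 0.00113). Cpq, described above, and Adamts10 were the other falls. Mmp15, a membrane-type matrix metalloprotease, rose from 15.9, 15.6 and 16 CPM to 39, 69.3 and 45.1 CPM (edgeR log2 1.69, SE 0.36, adjusted p = 0.0114), a call lost without NSi 2 (adjusted p = 0.0523). Adam12 was the other rise.

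**Figure D3:**
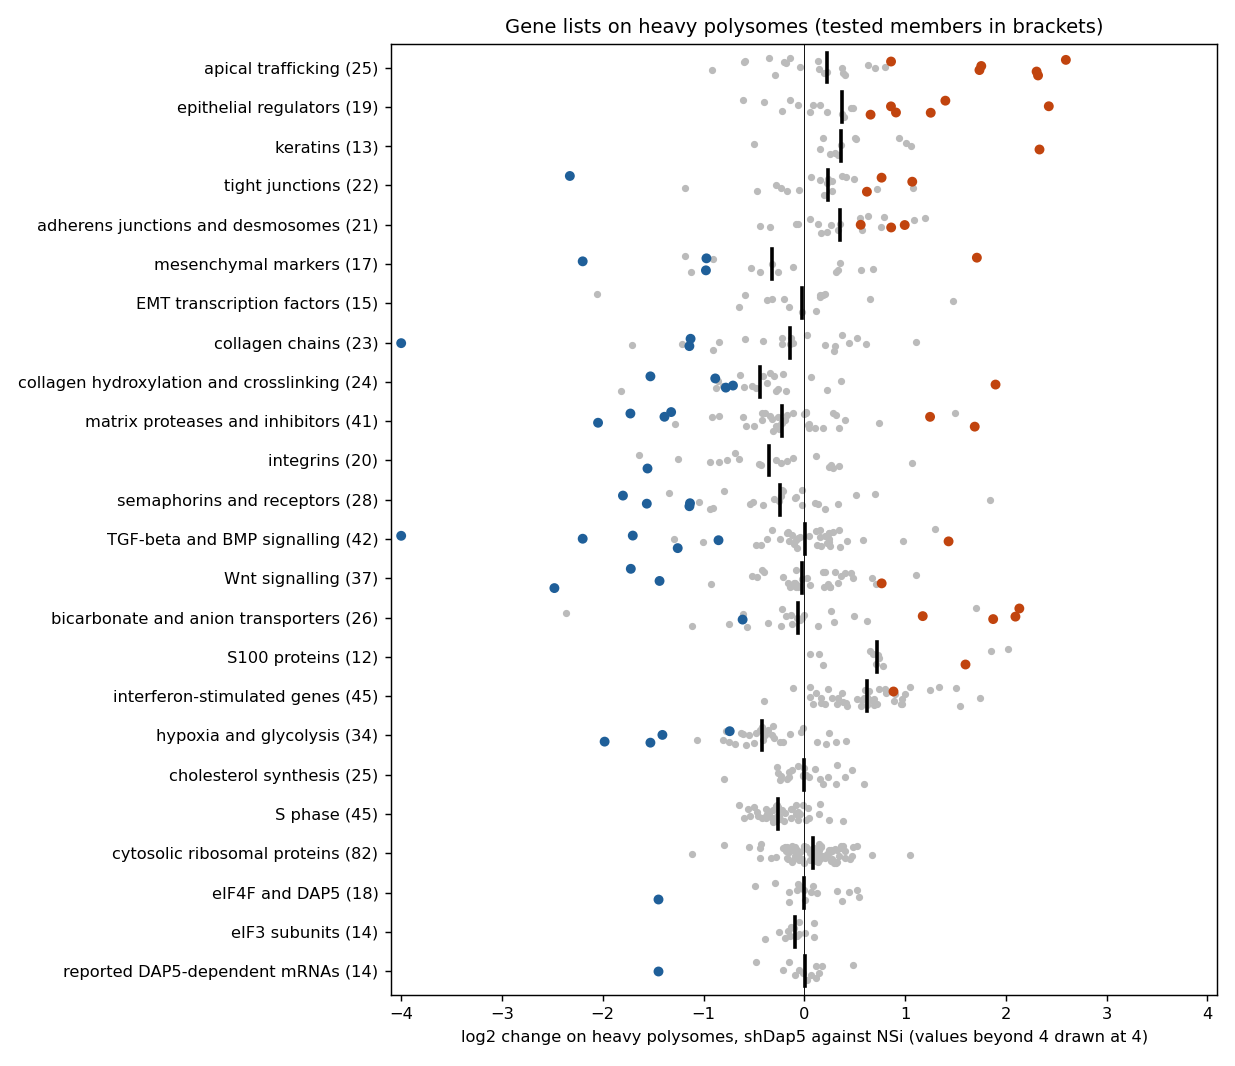
Each row is a gene list with the number of tested members in brackets, each point a member at its edgeR log2 change on heavy polysomes (values beyond 4 drawn at 4), coloured where the adjusted p was under 0.05, and each bar the median. Coloured points lie to the right in the apical trafficking and epithelial regulator rows and mostly to the left in the collagen modification, semaphorin and hypoxia rows.

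Calls among hypoxia and glycolysis genes were all falls. Among 34 tested genes 29 had a negative log2 change (median -0.42), and 4 fell and none rose. The list's median was -0.39, -0.58 and -0.32 by library number, and in the paired fit 20 fell and none rose. Over all genes 1.92% fell in the unpaired and 9.31% in the paired fit. Eno2, the neuronal form of enolase, fell from 17, 23.2 and 19 CPM to 7.60, 7.25 and 7.44 CPM (edgeR log2 -1.41, SE 0.21, adjusted p = 0.00102). Ldhb, a lactate dehydrogenase subunit, fell from 16.1, 15.3 and 28.6 CPM to 3.50, 4.94 and 6.72 CPM (edgeR log2 -1.98, SE 0.33, adjusted p = 0.00217). P4ha2, also a gene of the hypoxia response, was the third. Egln3, an oxygen-sensing prolyl hydroxylase, fell from 172, 239 and 221 CPM to 138, 102 and 139 CPM (edgeR log2 -0.74, SE 0.18, adjusted p = 0.0236), a call lost without NSi 2 or shDap5 2 (adjusted p up to 0.115). The abundant enzymes did not pass: Ldha stood at 3697, 3417 and 2415 CPM in NSi and 3188, 1786 and 1414 CPM in shDap5 (edgeR log2 -0.58, SE 0.38, adjusted p = 0.476). Car9, a carbonic anhydrase and common marker of hypoxia, stood at 286, 290 and 279 CPM against 159, 225 and 175 CPM, with no overlap and an edgeR adjusted p of 0.0625. P4ha1, another catalytic subunit of prolyl 4-hydroxylase, was at -0.81 (edgeR adjusted p = 0.0757). Ldha, Car9 and P4ha1 fell in the paired fit (adjusted p = 0.00808, 0.00262 and 0.00713).

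The promoters of the prolyl hydroxylase genes P4ha2, P4ha1 and Egln3 are shown because all 3 are in the hypoxia list, P4ha2 and P4ha1 are in the collagen modification list too, and each holds ACGTG, the core that hypoxia-inducible factors are known to bind. Each sequence is the 250 bases before the RefSeq start in GRCm38.p6, 5′ to 3′ on the gene's strand, with the match in capitals. Both strands were searched, and a match on the other strand reads CACGT. P4ha2 lies at chr11:54100674-54100923 on the plus strand, P4ha1 at chr10:59323046-59323295 on the plus strand and Egln3 at chr12:54203875-54204124 on the minus strand.
P4ha2: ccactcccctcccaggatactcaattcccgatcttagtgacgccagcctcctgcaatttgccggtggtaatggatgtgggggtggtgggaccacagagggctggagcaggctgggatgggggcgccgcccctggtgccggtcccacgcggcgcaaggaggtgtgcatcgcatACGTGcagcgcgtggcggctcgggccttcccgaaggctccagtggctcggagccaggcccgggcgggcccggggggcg
P4ha1: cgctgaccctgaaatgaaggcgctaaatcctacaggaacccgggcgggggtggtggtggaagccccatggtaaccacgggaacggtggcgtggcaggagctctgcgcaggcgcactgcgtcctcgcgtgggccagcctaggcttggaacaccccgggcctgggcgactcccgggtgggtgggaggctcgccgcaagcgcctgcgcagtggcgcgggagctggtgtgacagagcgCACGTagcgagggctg
Egln3: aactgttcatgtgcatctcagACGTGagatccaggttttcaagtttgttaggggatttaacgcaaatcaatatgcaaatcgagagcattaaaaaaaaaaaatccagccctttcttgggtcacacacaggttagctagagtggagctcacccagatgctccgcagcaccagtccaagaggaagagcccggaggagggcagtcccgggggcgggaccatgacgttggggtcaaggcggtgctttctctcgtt
The matches begin 78, 16 and 229 bases before the start. ACGTG was found in 15 of the 30 hypoxia promoters in the table (50%) and in 16.6% of all 27025. Eno2 and Ldhb, which also fell, were not among those 15, and P4ha1 was called in the paired fit only. The 3 promoters shown were chosen after their values were seen, and the presence of the letters does not show binding.

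The lists of secreted signals and their receptors held more falls than rises. In the TGF-beta and BMP list of 42 genes 5 fell and 1 rose (median 0.00), where 1.92% of all genes fell and 2.03% rose. Inhbb, an activin subunit, rose from 3.22, 2.67 and 3.03 CPM to 9.75, 7.17 and 7.21 CPM (edgeR log2 1.43, SE 0.25, adjusted p = 0.00281). Fst, the activin antagonist follistatin, fell from 2.45, 5.49 and 2.56 CPM to 1.10, 1.33 and 0.800 CPM (edgeR log2 -1.70, SE 0.32, adjusted p = 0.0054). The ligand subunit and the antagonist thus moved in opposite directions, each with no overlap between arms. Tgfbr3, the co-receptor betaglycan, fell by 1.26 (SE 0.27, edgeR adjusted p = 0.0135), a call lost without NSi 2 or shDap5 1 (adjusted p up to 0.0718). Fstl1, Bmp7 and Bmpr1b were the other falls, the last on 29, 5 and 3 counts against 2, 0 and 0. In the Wnt list of 37 genes 3 fell and 1 rose (median -0.03). The ligands Wnt11 and Wnt10b fell by 2.48 and 1.72 (edgeR adjusted p = 0.00238 and 0.00594) and the receptor Fzd1 by 1.44 (adjusted p = 0.00563), while Tcf7l2, a transcription factor of the pathway, rose from 14.3, 12 and 13.4 CPM to 21.8, 22.1 and 24 CPM (log2 0.77, SE 0.13, adjusted p = 0.0024).

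Semaphorins, guidance cues of axons and vessels, fell in 4 of 28 list members and rose in none (median -0.24), and 10 of 26 fell in the paired fit. The shares of all genes that fell were 1.92% and 9.31%. Sema7a stood at 23.5, 27.6 and 31.9 CPM in NSi and at 11.8, 11 and 14.8 CPM in shDap5 (edgeR log2 -1.14, SE 0.27, adjusted p = 0.0237), and Sema3b, Sema5a and Sema4f fell by 1.56, 1.13 and 1.80. All 4 calls were lost without NSi 2 or shDap5 1, with adjusted p-values up to 0.0764, 0.0729, 0.0961 and 0.109 for Sema7a, Sema3b, Sema5a and Sema4f. Of 24 angiogenic factors Hhip, Angpt1, Ecm1 and Pdgfc fell and none rose (median -0.22). Angpt1, the ligand of the receptor Tie2, stood at 1.17, 1.68 and 0.62 CPM against 0.123, 0.39 and 0.176 CPM and fell by 2.31 (SE 0.50, edgeR adjusted p = 0.0139), a call lost without NSi 2, shDap5 1 or shDap5 3 (adjusted p up to 0.0759). Ecm1 was lost without NSi 1, shDap5 1 or shDap5 2 (up to 0.0878) and Pdgfc whichever library was left out (up to 0.127). Vegfa, the main endothelial growth factor, stood at 54.3, 60.2 and 80.9 CPM against 42.9, 50.2 and 55.2 CPM, with overlapping arms, and fell in the paired fit alone (adjusted p = 0.0229). In the EGF receptor family Nrg1 and Lrig1, a ligand and a negative regulator, fell by 0.65 and 0.58 (edgeR adjusted p = 0.0393 and 0.041), and each was lost when NSi 1, NSi 2, shDap5 1 or shDap5 3 was left out (adjusted p up to 0.166 and 0.152).

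Among 26 bicarbonate and anion transporters and carbonic anhydrases 4 rose and 1 fell, Clcn7 being the fall (median -0.06), beside 2.03% and 1.92% over all genes. Like the others, this list was drawn up with earlier results of these data known, so its share is no test. Besides Slc4a4, Car5b, a mitochondrial carbonic anhydrase, rose from 35.3, 38.2 and 39.5 CPM to 68.6, 98.4 and 88.2 CPM (edgeR log2 1.18, SE 0.17, adjusted p = 0.000646). Slc26a9, a chloride transporter of airway and stomach epithelium, and Car2, a cytosolic carbonic anhydrase, rose by 2.10 and 1.87 (edgeR adjusted p = 0.0184 and 0.0366). Their calls were lost without NSi 1, NSi 2 or shDap5 3 (adjusted p up to 0.0963 and 0.149). Slc39a4, a zinc importer, was the only call of 18 metallothionein and zinc genes. It stood at 55.7, 53.2 and 81.3 CPM in NSi and 12.7, 19.3 and 40.7 CPM in shDap5 (edgeR log2 -1.38, SE 0.36, adjusted p = 0.0373), and it was lost without any 1 of 5 libraries (up to 0.119). In the paired fit 8 of the 18 fell, Mt1 and Mt2 among them, and none rose (9.31% and 8.27% of all genes). Among 60 regulators of small GTPases and actin nucleators Cobl, Chn2 and Arhgap27 rose, and Arhgdib, a GDP dissociation inhibitor, fell from 45.4, 51.4 and 49.2 CPM to 15.7, 13.1 and 19.3 CPM (edgeR log2 -1.60, SE 0.19, adjusted p = 7.75e-05). Epb41l4a, a protein of the band 4.1 family, rose from 21.6, 19.5 and 22.2 CPM to 53.5, 49 and 59.7 CPM (edgeR log2 1.36, SE 0.13, adjusted p = 1.78e-05), and Ank2 was the only fall in the same list of 25 ankyrins, spectrins and scaffolds.

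Each of the stress and immune lists held at most 1 rise and 1 fall, where 2.03% of all genes rose and 1.92% fell. Nupr1, a stress-induced chromatin protein, rose from 44.4, 32.6 and 53.2 CPM to 116, 103 and 165 CPM (edgeR log2 1.56, SE 0.26, adjusted p = 0.00213). Psph, an enzyme of serine synthesis, fell from 129, 138 and 121 CPM to 93, 84.1 and 72.9 CPM (edgeR log2 -0.64, SE 0.14, adjusted p = 0.0168), a call lost without NSi 2 or shDap5 3 (up to 0.0843). They were the only calls of 38 genes of the integrated stress response (median -0.16). In the paired fit 3 of these 38 rose and 7 fell, where 8.27% of all genes rose and 9.31% fell. Nqo1, a quinone reductase and NRF2 target, fell by 0.83 (edgeR adjusted p = 0.0462), a call lost whichever library was left out (up to 0.122), and beside Nox4 it was the only call of 34 genes in its list. Il1b and Irgm1 were the only calls of the interleukin-1 and interferon lists, with log2 changes of 1.95 and 0.88, and each was lost without at least 4 of the libraries (up to 0.196 and 0.178). Of 45 interferon-stimulated genes 43 had a positive log2 change, with a median of 0.62, but the list's median by library number was -0.23, 0.95 and 0.68, so the number 1 libraries did not show it. Pairing gave 8 rises among 43 members, where it gave rises in 8.27% of all genes. Cd1d1 was the only call of 26 MHC class I genes (median -0.11) and fell. In the paired fit 1 of the 26 rose and 6 fell (8.27% and 9.31% of all genes). S100 genes, which encode calcium-binding proteins, were above 0 in 12 of 12 members (median 0.72; 0.77, 0.45 and 0.78 by number), yet S100a3 alone was called (edgeR log2 1.59, adjusted p = 0.0293) and was lost without NSi 1, NSi 2, shDap5 1 or shDap5 3 (up to 0.242). In the paired fit 9 of the 12 rose (8.27% of all genes). S100a6 stood at 2164, 1929 and 3507 CPM in NSi and 3718, 2896 and 6067 CPM in shDap5, with the number 3 library highest in both arms. Csf1r, the receptor for colony-stimulating factor 1, was the only called gene of the macrophage marker list and rose from 6.08, 4.17 and 3.80 CPM to 13, 17.4 and 12.3 CPM (edgeR log2 1.60, SE 0.26, adjusted p = 0.00204). No other macrophage marker was called: Cd68 averaged 67.8 CPM in NSi and 61.9 CPM in shDap5, Cd14 27.7 and 29.9, Lyz2 0.80 and 0.298, Mrc1 0.749 and 0.151, Adgre1 0.0122 and 0, and C1qa and C1qb 0 in all 6.

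**Figure D4:**
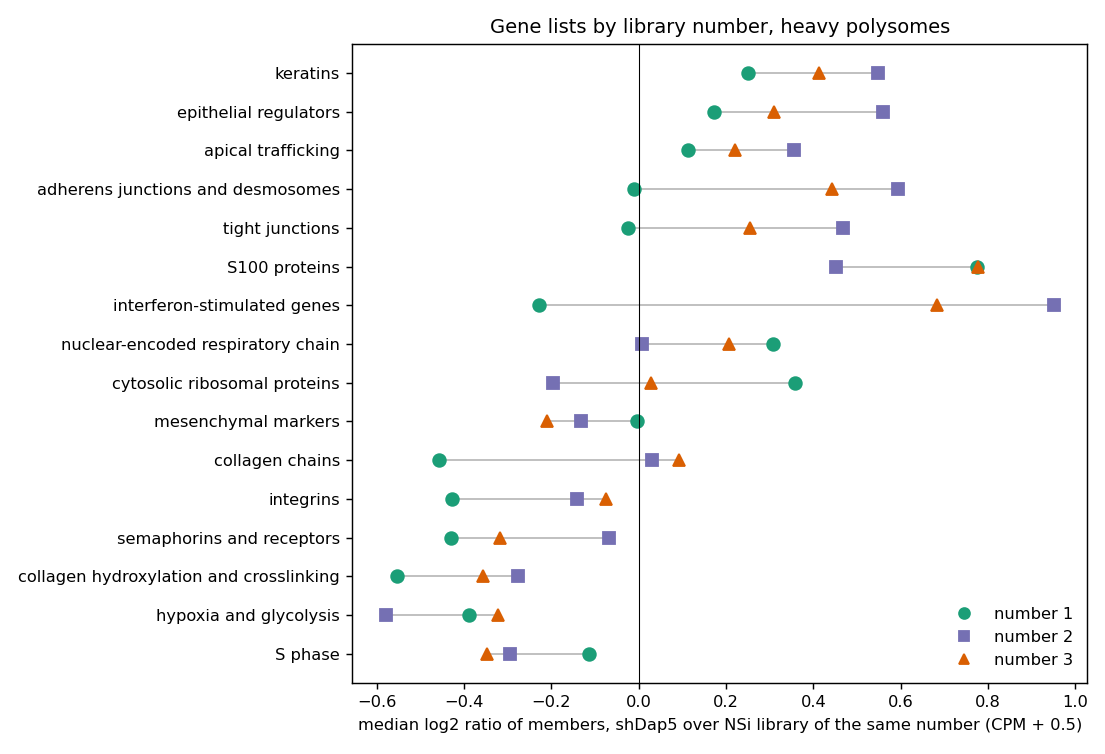
Each row is a gene list and each symbol the median log2 ratio of its members between the shDap5 and the NSi library of 1 number, computed on CPM with 0.5 added. Keratins, epithelial regulators and S100 genes lie above 0 in all 3 numbers and hypoxia, collagen modification and S phase genes below it. Interferon-stimulated genes, ribosomal proteins, collagen chains and both junction lists change sign between numbers.

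Genes of cell growth and division did not pass in the unpaired fit. None of 45 S phase genes was called (median -0.26), and the one with the smallest p-value, Mcm2, a subunit of the replicative helicase, stood at 382, 350 and 276 CPM in NSi and 256, 241 and 171 CPM in shDap5 (edgeR log2 -0.59, SE 0.21, adjusted p = 0.136). In the paired fit 16 of the 45 fell and none rose, where 9.31% of all genes fell and 8.27% rose. None of 40 genes of G2 and mitosis was called (median -0.11; 3 fell in the paired fit), none of 35 proteasome genes (median -0.12; 1 fell in the paired fit), none of 33 chaperone and endoplasmic reticulum stress genes (median -0.16; 2 fell in the paired fit) and none of 25 cholesterol synthesis genes (median 0.00; 3 rose and 1 fell). Bik, a pro-apoptotic BH3-only gene, was the only call of 38 apoptosis regulators. It rose from 1.26, 1.54 and 2.36 CPM to 4.48, 3.69 and 7.12 CPM (edgeR log2 1.57, SE 0.32, adjusted p = 0.00852), and the call was lost without shDap5 3 (adjusted p = 0.0519).

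The 10 most abundant called genes included Vim and Eif4g2, described above, and several with smaller log2 changes. Maged1, a MAGE family adaptor, rose from 859, 591 and 721 CPM to 1348, 1254 and 1531 CPM (edgeR log2 0.93, SE 0.18, adjusted p = 0.00622). Epha2, an ephrin receptor, fell from 610, 595 and 569 CPM to 363, 364 and 323 CPM (edgeR log2 -0.76, SE 0.15, adjusted p = 0.00678). Eno3, the muscle form of enolase, fell from 437, 385 and 381 CPM to 245, 212 and 228 CPM (edgeR log2 -0.81, SE 0.14, adjusted p = 0.00251). In these 3 genes the arms lay far apart relative to the spread within each. Tinagl1, a secreted matrix protein, fell by 0.64 (edgeR adjusted p = 0.0122), Por, the electron donor of cytochrome P450 enzymes, by 0.66 (adjusted p = 0.0313) and Vat1 by 0.48 (adjusted p = 0.0451). Leaving out 1 library ended these last 3 calls: NSi 2 or shDap5 3 for Tinagl1 (up to 0.0625), NSi 1, NSi 2, shDap5 1 or shDap5 3 for Por (up to 0.117) and each of the 6 in turn for Vat1 (up to 0.216).

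Most called differences on heavy polysomes were also present in whole lysate. Of the 595 genes 590 had the same sign in input, and 422 were also called there in the same direction, which is 70.9% of the heavy calls and 40.3% of the 1047 input calls. Input calls made up 6.95% of the genes tested (3.01% higher and 3.94% lower in shDap5). On light polysomes 338 were called in the same direction, 56.8% of the heavy calls and 64.6% of the 523 light calls (3.47% of the genes tested, 1.83% higher and 1.64% lower). The 3 comparisons share no library, but they are not independent. They come from the same line of each arm, carry the same replicate numbers and were fitted with a spread shared by all 18 libraries. A test of the difference between the heavy and the input change called no gene with edgeR (0.0%), with 295 genes (1.96%) at an unadjusted p under 0.05, and none with DESeq2, with 360 unadjusted. Heavy relative to light polysomes also gave no call with edgeR (181 unadjusted) and none with DESeq2 (223 unadjusted). With no true difference a share of about 0.05 would fall under that threshold, and both comparisons gave less. The tests were thus conservative here, and the absence of calls does not show that the changes were equal. Eif4g2 itself was at -1.45 on heavy polysomes, at -1.60 on light polysomes (edgeR adjusted p = 0.00204) and at -0.59 in input, where it was not called (adjusted p = 0.202). The heavy minus input difference of -0.87 (SE 0.36) had an unadjusted edgeR p of 0.0275.

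The 5 called genes whose sign differed from that in input were Opn1sw, Lmtk3, Hist1h2bh, Hist1h2bb and Cst6, named because they are the whole exception. Cst6, cystatin E/M, a secreted inhibitor of lysosomal cysteine proteases, was the only one of them above 5 CPM in every heavy library. It stood at 19.9, 14.7 and 16.4 CPM in NSi and 32.3, 24.6 and 24.7 CPM in shDap5 (edgeR log2 0.68, SE 0.18, adjusted p = 0.0414), against -0.24 in input, a difference of 0.92 (SE 0.25, unadjusted p = 0.00196) that did not pass adjustment. Its call on heavy polysomes was lost when 1 library was left out, with an adjusted p of up to 0.181 (without NSi 2). The smallest p-value of this test above 5 CPM belonged to Ptbp2, a splicing repressor, at -0.33 on heavy polysomes and 0.47 in input (difference -0.80, SE 0.20, edgeR unadjusted p = 0.000866). Nqo1 was at -0.83 on heavy polysomes and -1.84 in input, with a difference of 1.01 (SE 0.32, edgeR unadjusted p = 0.00503). Bscl2, the lipid droplet protein seipin, was called on heavy polysomes (edgeR log2 1.23, adjusted p = 0.00256) and at 0.36 in input (adjusted p = 0.366), and the difference of 0.87 (SE 0.29, unadjusted p = 0.00824) was not called. Fads2, a fatty acid desaturase, was at -0.09 on heavy polysomes and 0.99 in input (difference -1.07, SE 0.33, edgeR unadjusted p = 0.00468). None of these differences passed over all genes tested.

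**Figure D5:**
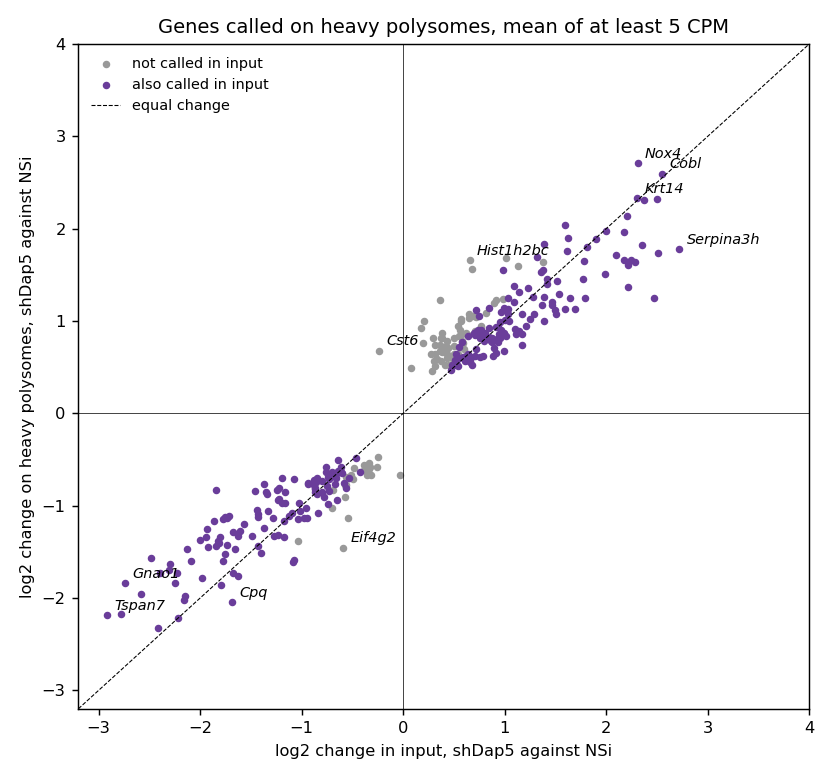
Each point is a gene called on heavy polysomes with a mean of at least 5 CPM, with its edgeR log2 change in input on the horizontal and on heavy polysomes on the vertical axis; purple points were also called in input, and the dashed line marks equal change. Most points lie near the dashed line, Cst6 alone lies above 0 on the vertical and below 0 on the horizontal axis, and Eif4g2 is further below 0 on heavy polysomes than in input.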

How the data were processed

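Polyadenylated RNA was sequenced in 18 libraries of 4T1 cells, and the 6 of heavy polysomes are described here. As deposited, each library was a list of raw read counts for 35976 gene symbols. Bowtie and the build mm9 are named per the submitters' processing notes. How reads were counted, on which annotation and whether by strand is not given in the sources used here, so overlapping, antisense and near-identical genes are uncertain. Symbols written as dates (27, at most 0.19% of heavy counts) are not named.

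All 18 libraries were fitted with 1 mean per group in edgeR 4.0.16 (R 4.3.3; quasi-likelihood F test, robust, TMM, filterByExpr with minimum count 10 and minimum total 15), which left 15072 genes, 12 residual degrees of freedom and a biological coefficient of variation of 0.227. P-values were adjusted by Benjamini-Hochberg over all genes tested. "Rose", "fell" and "called" mean an adjusted p under 0.05. "In the paired fit" refers to the 6 heavy libraries with the replicate number as a block. The SE is the log2 change over the square root of F. Total counts were 30385863 to 71331978, and a gene at 0 in an arm could have held up to 3 counts, a limit for counting error only. An exact permutation test of 3 against 3 libraries cannot go below p = 0.1, so none was run.

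Replicate numbers in the titles were checked as pairs. Deviations from the group means, over 10078 genes of at least 5 CPM, correlated at 0.51, 0.758 and 0.826 between heavy libraries of the same number. The labels do not say that the numbers mark pairs. The pairing was thus read from the same data that the paired fit used, and 3 libraries per arm cannot settle it. Tested on simulated data over 14891 genes, the fit recovered 69 of 100 genes changed 2-fold and 98 of 100 changed 4-fold, with 12 false calls. The simulated libraries were independent, without deviations shared by number or an outlying library, so these rates need not hold for the real ones. Replicates of a group differed beyond counting noise (chi-square over its degrees of freedom at least 66.1).

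The members, the 48 gene lists and the 9 marker lists were chosen with earlier results of these data known. Named genes are Eif4g2; the 15 largest rises and 15 largest falls that were called, averaged 5 CPM or more and did not overlap between arms; the 10 most abundant called genes; up to 4 called members per list by p-value, or the member with the smallest p-value where none was called; and up to 5 rises and 5 falls with the smallest p-values in heavy relative to input. Not every one is named, and the others named here were chosen after their values were seen. Alternatives covered scaling, filters, DESeq2 1.42.0, fewer libraries in the fit, replicate blocks, a stricter threshold and leaving out each heavy library. Promoters came from RefSeq (GRCm38.p6), and 30 of 34 hypoxia and 16 of 25 apical trafficking genes matched.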

Additional observations from a re-analysis of the deposited data

How the results depend on the processing

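The number of genes called on heavy polysomes was 595 and moved by over 1.5 times under several alternatives. It was 1050 with DESeq2, 56 with only the heavy libraries in the fit, 290 with a stricter filter of 5 CPM in 3 heavy libraries, which tests fewer genes, and 200 at an adjusted p under 0.01. With the replicate number as a block it was 1122 over the 18 libraries, 2330 with only the heavy libraries and 2765 with a block within each fraction, an alternative chosen after seeing the data. Leaving out 1 heavy library gave 252 to 682. Other scalings, no filter, the non-robust fit and the fit of input and heavy libraries stayed within 1.5 times (428 to 609). No named gene that was called changed direction under any alternative. The balance of calls, 306 higher and 289 lower, was close to even and turned to more lower than higher calls with DESeq2 (507 and 543), RLE size factors (294 and 315), upper quartile scaling (243 and 299), the block with only the heavy libraries (1096 and 1234), an adjusted p under 0.01 (97 and 103), and without NSi 1 (185 and 212), NSi 2 (109 and 143) or shDap5 3 (150 and 163). List medians over 0.1 in size kept their sign under every scaling, while leaving out 1 library turned 6 of them, namely mitochondrially encoded mRNAs from -0.13 to 0.31 without NSi 1 and to 0.13 without shDap5 2, ankyrins and spectrins from 0.11 to -0.13 without NSi 3 and to -0.16 without shDap5 2, proteasome genes to 0.03 and the retinoic acid pathway to -0.03 without NSi 1, MHC class I genes to 0.02 without shDap5 1, and G2 and mitosis genes to 0.01 without shDap5 3. The cause of these shifts was not tested. The block beside heavy relative to input, and every other alternative to that test, left it at 0 calls. Of the 103 named genes that were called, 56 remained called in every fit with 1 library left out and 47 were lost in at least 1. With the heavy libraries alone 74 of 113 named results fell below the threshold. Depth and 3 libraries per arm limit what could be called, so a gene without a call is not shown to be unchanged.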

Other observations

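Genes with no count in 1 arm lie outside the fold changes above, since such a fold is only a lower bound against a limit of 3 counts over the 3 libraries. Tcf23, a basic helix-loop-helix factor, had 0 counts in all NSi heavy libraries and 202, 241 and 301 counts in shDap5, at least 197-fold higher (edgeR adjusted p = 2.18e-06). In input it had 0, 0 and 2 counts in NSi and 353, 384 and 258 in shDap5. Tex16 had 11, 34 and 24 counts in NSi and 0 in all shDap5 heavy libraries, at least 32-fold lower (edgeR adjusted p = 0.00229). Themis3, Alx1, Irak3 and Scn7a were also at 0 in shDap5, at least 12.9-fold, 9.36-fold, 7.95-fold and 7.48-fold lower. All of these were chosen after their values were seen.

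The 13 genes that stood far higher in shDap5 2 than in the other heavy libraries included, from the highest level down, Cdk8, Cmss1, Lars2, Gm30821, Mir6236, Camk1d, Slc22a29, Il31ra, Gm15564, Gphn, Ribc2 and Gm36876. Cmss1 stood at 4360 CPM in shDap5 2 and at 71.7 to 287 CPM in the other 5, and the locus Mir6236 at 2669 CPM against 18.9 to 117 CPM. Together the 13 took 0.274% to 0.43% of the counts in the 6 input libraries. No other heavy library held a gene above 20 CPM on average that exceeded all the rest 5-fold.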
